A study of Homo sapiens with 12 samples.

Results

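Keratins and vimentin are intermediate filament genes, and 10 of them were followed in MDA-MB-231 cells after knockdown of HDAC5 or of LSD1, enzymes that act on histones. The members were KRT5, KRT7, KRT8, KRT14, KRT15, KRT17, KRT18, KRT19, KRT81 and VIM, and every probe set annotated to a member by a single gene symbol was taken. That gave 9 of the 22215 probe sets tested, for 8 of the 10 genes: KRT7 had 2 probe sets and the other genes 1 each, while KRT17 and KRT81 were not analysed here. MDA-MB-231 is an established human breast cancer line of the triple-negative, mesenchymal kind. HDAC5 belongs to the class IIa deacetylases, and LSD1, encoded by KDM1A, is a histone lysine demethylase.

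The 4 groups held 3 arrays each: HDAC5 shRNA, the scramble shRNA set taken as its control, LSD1 shRNA, and a scramble shRNA set that the labels tie to LSD1. All of them, controls included, were MDA-MB-231 cells given lentiviral particles with an shRNA. The HDAC5 control set was assigned because the other scramble set carries the LSD1 tag. The labels call the replicates biological without saying whether cultures, transductions or days separated them, so the p-values measure the spread between these arrays. The labels do not give the number of hairpins per target or whether transduced cells were cloned or pooled.

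Keratins are obligate partners: a type I (acidic) keratin pairs with a type II (basic) keratin, and the pairs polymerise into filaments that tie the nucleus to desmosomes and hemidesmosomes. Simple epithelia such as the luminal layer of the breast use KRT8 and KRT7 (type II) with KRT18 and KRT19 (type I). Basal layers use KRT5 with KRT14, and KRT15 is a further basal type I keratin. Vimentin, a type III protein, forms filaments by itself in mesenchymal cells, and tumour cells that lose epithelial traits often carry both systems.

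Of the 10 members, 3 had a sequence before their start site in the RefSeq table (GRCh38.p14), and the vimentin and KRT5 ones are shown to set the mesenchymal gene, whose probe set was among the brightest on every array, beside a basal keratin whose probe set was dim. Each is the 250 bases before the start the table gives. The KRT8 entry may lie at an alternative start and is not shown. Whether the VIM and KRT5 entries lie at the main start of their genes was not tested, nor which starts gave their array signal. VIM lies at chr10:17227991-17228240 on the plus strand and KRT5 at chr12:52520395-52520644 on the minus strand. Capitals mark a GC box.
VIM: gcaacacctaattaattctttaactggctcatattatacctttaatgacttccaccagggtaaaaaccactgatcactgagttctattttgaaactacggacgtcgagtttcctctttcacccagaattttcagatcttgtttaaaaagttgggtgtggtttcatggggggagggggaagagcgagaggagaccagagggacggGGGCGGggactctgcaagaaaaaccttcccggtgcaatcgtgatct
KRT5: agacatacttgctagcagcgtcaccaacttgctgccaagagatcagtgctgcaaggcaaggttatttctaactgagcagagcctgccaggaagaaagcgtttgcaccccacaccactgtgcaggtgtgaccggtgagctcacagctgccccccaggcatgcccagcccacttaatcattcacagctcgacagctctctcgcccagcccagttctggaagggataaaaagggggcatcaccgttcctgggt

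The VIM stretch held 8 CpG pairs at 46% GC and the KRT5 stretch 6 CpG pairs at 56% GC, against a median of 11 CpG pairs over all 35116 promoters of the same length. Searched on both strands, the GC box GGGCGG occurred 1 time in VIM and in 42.6% of all promoters. The letters TATAAA (10.7% of promoters), GCCNNNGGC for AP-2 (19.8%) and TGANTCA for AP-1 (6.57%) were in neither window. A match, or its absence, describes these letters alone.

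Values are deposited log2 values made by RMA, a method that corrects background, equalises arrays and summarises the probes of a set. The medians of the arrays were 6.58 to 6.64 in the HDAC5 experiment and 7.05 to 7.15 in the LSD1 experiment, so levels were compared within an experiment only. The targeted genes were lower in the arrays labelled for them. HDAC5 read 6.17, 6.19 and 6.50 with HDAC5 shRNA, against 7.56, 7.42 and 7.22 with scramble, a change of -1.11 (SE 0.11, adjusted p = 4.72e-05). KDM1A read 6.48, 6.81 and 6.60 with LSD1 shRNA, against 9.61, 9.76 and 9.78 with scramble, a change of -3.08 (SE 0.12, adjusted p = 5.42e-05). Marker genes were placed by the probe set of each gene with the highest mean percentile over the groups. Of 8 genes known to be strong in this line, VIM among them, all stood above the array median in every group (percentiles 59.6 to 99.8). Of 9 that it is known to express weakly, GATA3, CLDN4 and EPCAM were above the median in every group by that probe set, and the list spanned percentiles 1.52 to 72.8. Blood markers (6 genes) stood at percentiles 7.52 to 50.2 and fibroblast or endothelial markers (7 genes) at 0.155 to 61.0.

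A probe set was called changed at a Benjamini-Hochberg adjusted p under 0.05 over all 22215 (limma). With HDAC5 shRNA, 2 member probe sets rose (KRT8 and VIM), 3 fell (KRT15 and both of KRT7) and 4 did not pass. Over all probe sets, 38.2% were called in that comparison (19.0% higher and 19.2% lower), so a large share of the array moved with HDAC5 shRNA. With LSD1 shRNA, KRT15 and KRT8 rose, none fell and 7 did not pass, against a background of 3.81% (2.11% higher and 1.70% lower). The median change over the 9 was -0.07 with HDAC5 shRNA (-0.01 over all probe sets) and 0.17 with LSD1 shRNA (-0.001 over all). KRT8 was the only measured member that rose with both shRNAs, and KRT15 the only one that passed in opposite directions.

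**Figure D1:**
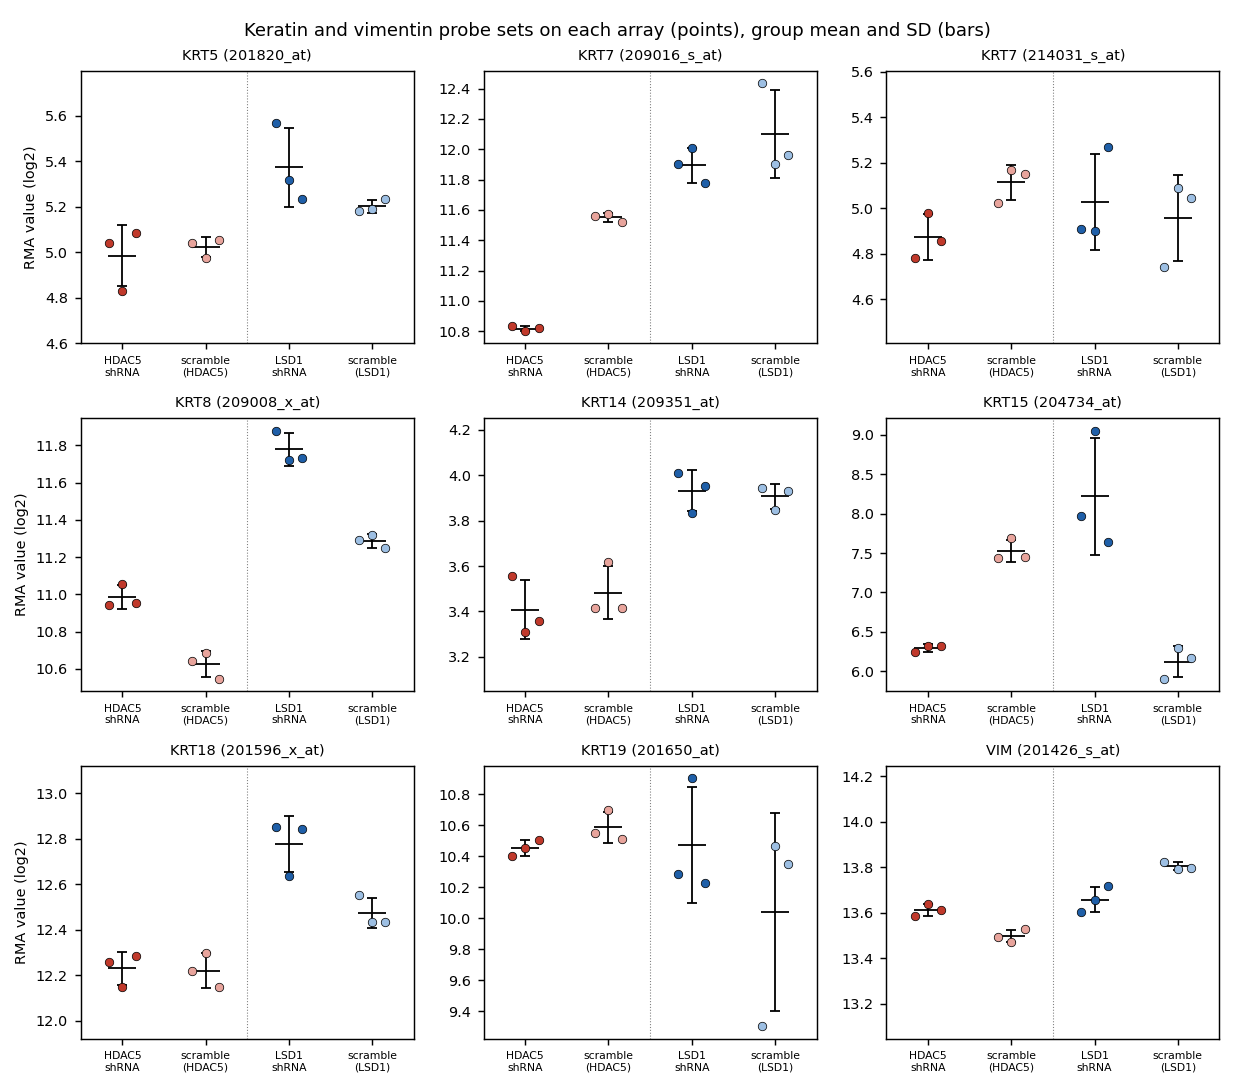
RMA values (log2) of the 9 member probe sets on the 12 arrays, by group, with 1 point per array and bars for the group mean and SD (n = 3); each panel has its own axis, and the dotted line parts the experiments, whose levels are not comparable. KRT15 lies below its scramble arrays with HDAC5 shRNA (6.24 to 6.32) and above them with LSD1 shRNA (7.63 to 9.06), while KRT8 lies above them in both experiments.

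KRT15, the type I keratin of basal layers and of hair follicle stem cells, had the largest change of the members with either shRNA. Its probe set (204734_at) read 6.24, 6.32 and 6.32 with HDAC5 shRNA, against 7.44, 7.69 and 7.45 with scramble. All 3 HDAC5 shRNA arrays lay below all 3 scramble arrays, and the spread in either group was small beside the gap (means 6.29 ± 0.05 and 7.53 ± 0.14, SD, n = 3 each). The change was -1.23 (SE 0.08, 95% interval -1.41 to -1.05, adjusted p = 3.09e-06), which is 2.35-fold, and 1.45% of all probe sets had a larger change. In bulk RNA, fewer cells with KRT15 and less KRT15 RNA per cell cannot be told apart, here or for the other members.

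With LSD1 shRNA the same probe set read 7.97, 9.06 and 7.63, against 5.90, 6.29 and 6.17 with scramble. Here every shRNA array lay above every scramble array, but the shRNA arrays spread widely (8.22 ± 0.74, against 6.12 ± 0.20 with scramble, SD, n = 3 each), with replicate 2 well above the other two. The change was 2.10 (SE 0.35, 95% interval 1.28 to 2.92, adjusted p = 0.0277), or 4.29-fold, and 0.315% of all probe sets had a larger one. The call was lost without LSD1 shRNA replicate 1 (2.23, adjusted p = 0.0863) or without scramble replicate A (1.99, adjusted p = 0.0925), B (2.18, adjusted p = 0.111) or C (2.12, adjusted p = 0.134), and the change was 1.68 without LSD1 shRNA replicate 2 (adjusted p = 0.00859). The direction was the same in each of these fits.

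The difference between the KRT15 changes, that with HDAC5 shRNA minus that with LSD1 shRNA, was -3.33 (SE 0.38, 95% interval -4.16 to -2.51, adjusted p = 9.07e-05) in a fit of all 12 arrays. For this contrast 4 of the 9 member probe sets were called, VIM higher and KRT15, KRT7 (209016_s_at) and KRT18 lower, against 26.9% of all probe sets (14.2% higher and 12.7% lower). Leaving out each array in turn gave -3.63 to -2.92, and all of these passed. The scramble sets themselves stood 1.41 apart for KRT15, higher in the HDAC5 experiment, in values not on a common scale across the experiments. Experiment and processing cannot be told apart in that offset.

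KRT8, the type II keratin of simple epithelia, was modestly higher with both shRNAs. Its probe set (209008_x_at) read 10.94, 11.06 and 10.96 with HDAC5 shRNA, against 10.64, 10.68 and 10.55 with scramble. The groups did not overlap, and the change was 0.36 (SE 0.05, adjusted p = 2.91e-04), 1.28-fold. In the LSD1 experiment it read 11.88, 11.72 and 11.73 with LSD1 shRNA, against 11.29, 11.32 and 11.25 with scramble. These groups did not overlap either, and the change was 0.49 (SE 0.07, adjusted p = 0.0166), 1.41-fold. That call was lost without LSD1 shRNA replicate 1 (0.44, adjusted p = 0.0674) or 3 (0.51, adjusted p = 0.0565), and without scramble replicate A (0.49, adjusted p = 0.0531), B (0.51, adjusted p = 0.0816) or C (0.47, adjusted p = 0.105), with the size little altered. The changes in the 2 experiments did not pass a test of their difference (-0.13, 95% interval -0.32 to 0.05, adjusted p = 0.301).

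KRT18, the type I partner of KRT8 and its direct neighbour on chromosome 12, gave a different picture with HDAC5 shRNA. Its probe set (201596_x_at) read 12.26, 12.15 and 12.28 with HDAC5 shRNA, against 12.22, 12.30 and 12.15 with scramble. The groups overlapped, and the difference was 0.01 (SE 0.05, 95% interval -0.10 to 0.12, adjusted p = 0.909), an interval that does not reach the KRT8 value. With LSD1 shRNA it read 12.85, 12.63 and 12.84, against 12.55, 12.43 and 12.44 with scramble. All LSD1 shRNA arrays were above all scramble arrays, but the difference of 0.30 (SE 0.07) did not pass (adjusted p = 0.0750), though it did without LSD1 shRNA replicate 2 (0.37, adjusted p = 0.0230). The KRT18 change with HDAC5 shRNA minus that with LSD1 shRNA was -0.29 (SE 0.09, adjusted p = 0.0340).
That call was lost, at adjusted p-values up to 0.0891, when any of 8 arrays was left out: HDAC5 shRNA replicate 1 (-0.31) or 2 (-0.25), HDAC5 scramble replicate 1 (-0.30) or 2 (-0.25), LSD1 shRNA replicate 1 (-0.26) or 3 (-0.26), and LSD1 scramble replicate B (-0.27) or C (-0.27).

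KRT8 and KRT18 proteins stabilise each other as a pair, so their difference was also taken within each array, a comparison chosen after the values were seen. KRT8 minus KRT18 averaged -1.24 ± 0.14 with HDAC5 shRNA, against -1.60 ± 0.02 with scramble, so KRT8 gained 0.35 on KRT18. It averaged -0.998 ± 0.101 with LSD1 shRNA, against -1.19 ± 0.07 with scramble, a gain of 0.19 (SD, n = 3 for each mean). Neither pair of groups overlapped, and each exact two-sided permutation p was 0.1, the smallest that 3 arrays against 3 can give (0.12 adjusted over 6 such tests). The sign of such a difference rests on probe brightness, and only its shift between groups is a measurement of the genes.

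**Figure D2:**
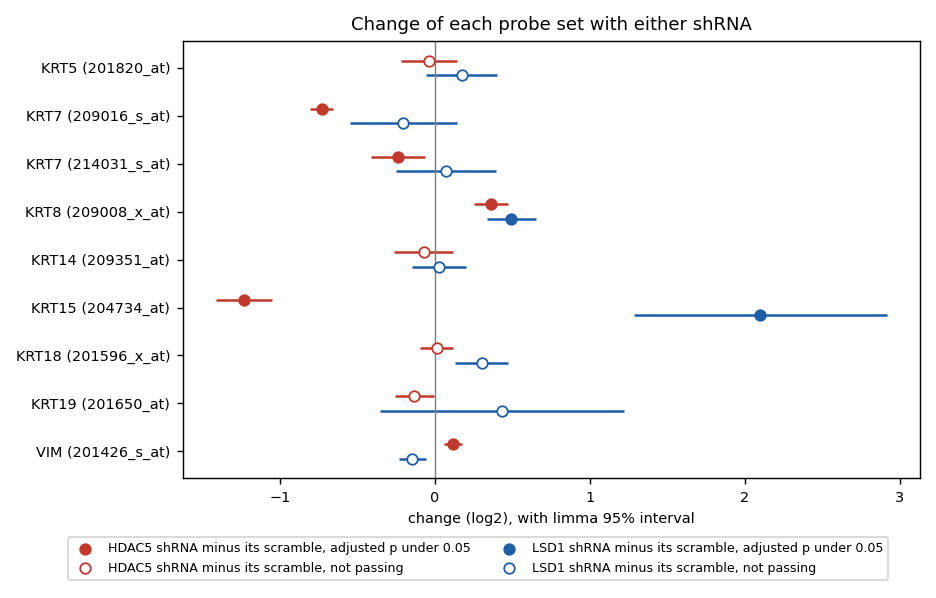
Change of each member probe set with HDAC5 shRNA (red) and with LSD1 shRNA (blue), each minus its own scramble arrays, on a log2 axis with limma's 95% intervals; filled points passed an adjusted p of 0.05 over all probe sets. The KRT15 points lie on opposite sides of 0 at -1.23 and 2.10, and the KRT8 points lie together at 0.36 and 0.49.

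KRT7, the other type II keratin of simple epithelia, fell with HDAC5 shRNA. Its brighter probe set (209016_s_at) read 10.83, 10.80 and 10.82 with HDAC5 shRNA, against 11.56, 11.57 and 11.52 with scramble. The arrays of each group were nearly identical and the groups lay far apart, giving a change of -0.73 (SE 0.03, 95% interval -0.81 to -0.66, adjusted p = 3.55e-07), 1.66-fold. With LSD1 shRNA the probe set read 11.90, 12.01 and 11.77, against 12.44, 11.90 and 11.96 with scramble. These groups overlapped, scramble replicate A stood highest, and the difference of -0.21 (SE 0.15, 95% interval -0.55 to 0.14) did not pass (adjusted p = 0.506). It was -0.04 without scramble replicate A.

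For the KRT7 change with HDAC5 shRNA minus that with LSD1 shRNA, the brighter probe set gave -0.53 (SE 0.16, 95% interval -0.87 to -0.18, adjusted p = 0.0269). That call was lost, at adjusted p-values up to 0.0678, without HDAC5 shRNA replicate 1 (-0.53), 2 (-0.52) or 3 (-0.53), HDAC5 scramble replicate 1 (-0.52) or 2 (-0.51), or LSD1 scramble replicate B (-0.43) or C (-0.46).
The dimmer KRT7 probe set (214031_s_at), at percentiles 22 to 32 of the array, read 4.78, 4.98 and 4.86 with HDAC5 shRNA, against 5.02, 5.17 and 5.15 with scramble. Its change was -0.24 (SE 0.08, adjusted p = 0.0336), in the same direction as the brighter one and smaller. The call was lost without HDAC5 shRNA replicate 1 (-0.19, adjusted p = 0.0946) or 3 (-0.23, adjusted p = 0.0961) and without scramble replicate 2 (-0.22, adjusted p = 0.110) or 3 (-0.22, adjusted p = 0.0950). With LSD1 shRNA it read 4.91, 4.90 and 5.27, against 4.74, 5.09 and 5.04 with scramble, groups that overlapped (0.07, adjusted p = 0.835).

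KRT19, a type I keratin of ducts and simple epithelia and the gene next to KRT15 on chromosome 17, did not pass with either shRNA. Its probe set (201650_at) read 10.40, 10.45 and 10.50 with HDAC5 shRNA, against 10.55, 10.70 and 10.51 with scramble. The HDAC5 shRNA arrays lay just below the scramble arrays, by 0.13 (change -0.13, SE 0.05, adjusted p = 0.0872), and the difference passed without scramble replicate 3 (-0.17, adjusted p = 0.0474). With LSD1 shRNA it read 10.29, 10.91 and 10.23, against 9.30, 10.46 and 10.35 with scramble. The groups overlapped, with scramble replicate A far below the rest, and the difference was 0.43 (SE 0.33, 95% interval -0.35 to 1.22, adjusted p = 0.540) with that array and 0.07 without it. LSD1 shRNA replicate 2 was the highest array of its group for KRT19 as it was for KRT15.

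The basal pair KRT5 (type II) and KRT14 (type I) was dim and did not pass in either comparison. KRT5 (201820_at) read 5.04, 4.83 and 5.08 with HDAC5 shRNA, against 5.04, 4.97 and 5.05 with scramble (-0.04, SE 0.08, adjusted p = 0.763). With LSD1 shRNA it read 5.57, 5.32 and 5.24, against 5.18, 5.19 and 5.24 with scramble (0.17, SE 0.10, adjusted p = 0.401). The groups overlapped in both KRT5 comparisons.
KRT14 (209351_at) read 3.56, 3.31 and 3.36 with HDAC5 shRNA, against 3.42, 3.62 and 3.42 with scramble (-0.07, SE 0.08, adjusted p = 0.551). With LSD1 shRNA it read 4.01, 3.83 and 3.95, against 3.94, 3.84 and 3.93 with scramble (0.03, SE 0.07, adjusted p = 0.890). The groups overlapped here too, and a p that misses the threshold does not show that KRT5 and KRT14 did not change.

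Vimentin, the mesenchymal filament protein, moved little and in unlike ways. Its probe set (201426_s_at) read 13.59, 13.64 and 13.61 with HDAC5 shRNA, against 13.49, 13.47 and 13.53 with scramble. The groups did not overlap, and the change was 0.12 (SE 0.02, adjusted p = 0.00487), 1.08-fold; it did not pass without limma's trend (adjusted p = 0.0801). With LSD1 shRNA it read 13.60, 13.65 and 13.72, against 13.82, 13.79 and 13.80 with scramble. All LSD1 shRNA arrays were below all scramble arrays, but the difference of -0.15 (SE 0.04) did not pass (adjusted p = 0.0854). The VIM change with HDAC5 shRNA minus that with LSD1 shRNA was 0.26 (SE 0.04, adjusted p = 0.00107), and it passed with each array left out (0.24 to 0.29). The probe set stood at percentiles 99.5 to 99.8 of the array, where array signal can saturate and understate a change.

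Set against vimentin within each array, a comparison also chosen after the values were seen and limited by any saturation of the VIM probe set, KRT8 averaged -1.88 ± 0.14 with LSD1 shRNA, against -2.52 ± 0.04 with scramble, a shift of 0.64. KRT18 minus VIM averaged -0.88 ± 0.13 with LSD1 shRNA, against -1.33 ± 0.05 with scramble, a shift of 0.45 (SD, n = 3 for each mean). With LSD1 shRNA neither difference overlapped its scramble arrays (exact two-sided permutation p = 0.1 for each, the smallest possible, and 0.12 adjusted over the 6 tests), so neither passed. With HDAC5 shRNA, KRT8 minus VIM shifted by 0.24 without overlap (exact p = 0.1), while KRT18 minus VIM shifted by -0.11 with overlapping groups (exact p = 0.3).

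**Figure D3:**
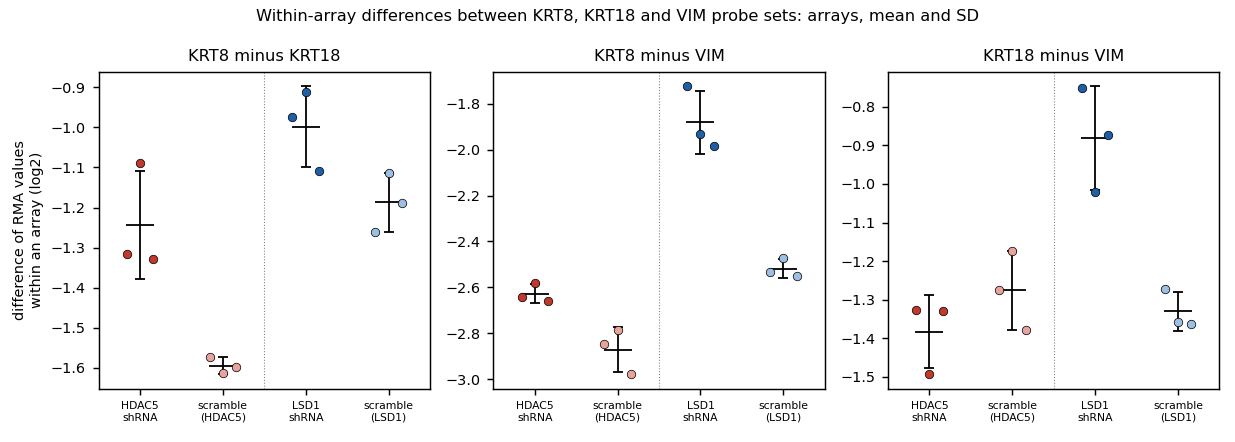
Differences (log2) between the KRT8, KRT18 and VIM probe sets within each array, by group, with 1 point per array and bars for the mean and SD (n = 3); zero has no meaning here, since probe sets differ in brightness. KRT8 minus VIM averages -1.88 with LSD1 shRNA, against -2.52 with its scramble, and KRT8 minus KRT18 averages -1.24 with HDAC5 shRNA, against -1.60 with its scramble.

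Counting separation alone, the shRNA and scramble arrays did not overlap for 6 of the 9 member probe sets in the HDAC5 experiment, against 46.0% of all probe sets, and for 4 of the 9 in the LSD1 experiment, against 24.5% of all. Probe sets whose names end in _x_at or _s_at can bind related transcripts, which keratin pseudogenes provide. The probe set of the KRT8 pseudogene KRT8P12 differed by 0.05 with HDAC5 shRNA (adjusted p = 0.641) and by -0.10 with LSD1 shRNA (adjusted p = 0.692). The KRT19 pseudogene KRT19P2 differed by 0.01 (adjusted p = 0.935) and by -0.11 (adjusted p = 0.479) in the same comparisons. The KRT19 probe set has neither ending, and no KRT18 pseudogene is given here. Values of pseudogene probe sets cannot show whether related transcripts bound the member probe sets, and that was not tested.

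The remaining keratin genes were nearly all dim. A list of all other keratins gave 25 genes with 28 probe sets, and the 3 of KRT10, a type I keratin of differentiated epidermis, were the only ones above the array median in every group (percentiles 89.8 to 94.1). The other 25 stood at percentiles 2.71 to 45.9. A single KRT10 probe set (207023_x_at) rose with HDAC5 shRNA, averaging 10.76 ± 0.06 against 10.55 ± 0.02 with scramble (change 0.21, SE 0.04, adjusted p = 0.00303), and the other 27 did not pass. With LSD1 shRNA 0 of the 28 passed in limma, and 2 had an unadjusted p under 0.05. Their median change was -0.01 with HDAC5 shRNA and -0.02 with LSD1 shRNA. In gene order, KRT15 passed with both shRNAs, and its measured neighbours KRT13 and KRT19 with neither. KRT13 was dim (percentiles 9.097 to 13.05), and the KRT19 estimates had the signs of KRT15's (-0.13 and 0.43). KRT8 passed with both shRNAs and KRT18 beside it with neither, although all LSD1 shRNA arrays lay above scramble for KRT18 (0.30). KRT15 was not tested against its neighbours, and missing the threshold does not show that a neighbour did not change.

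**Figure D4:**
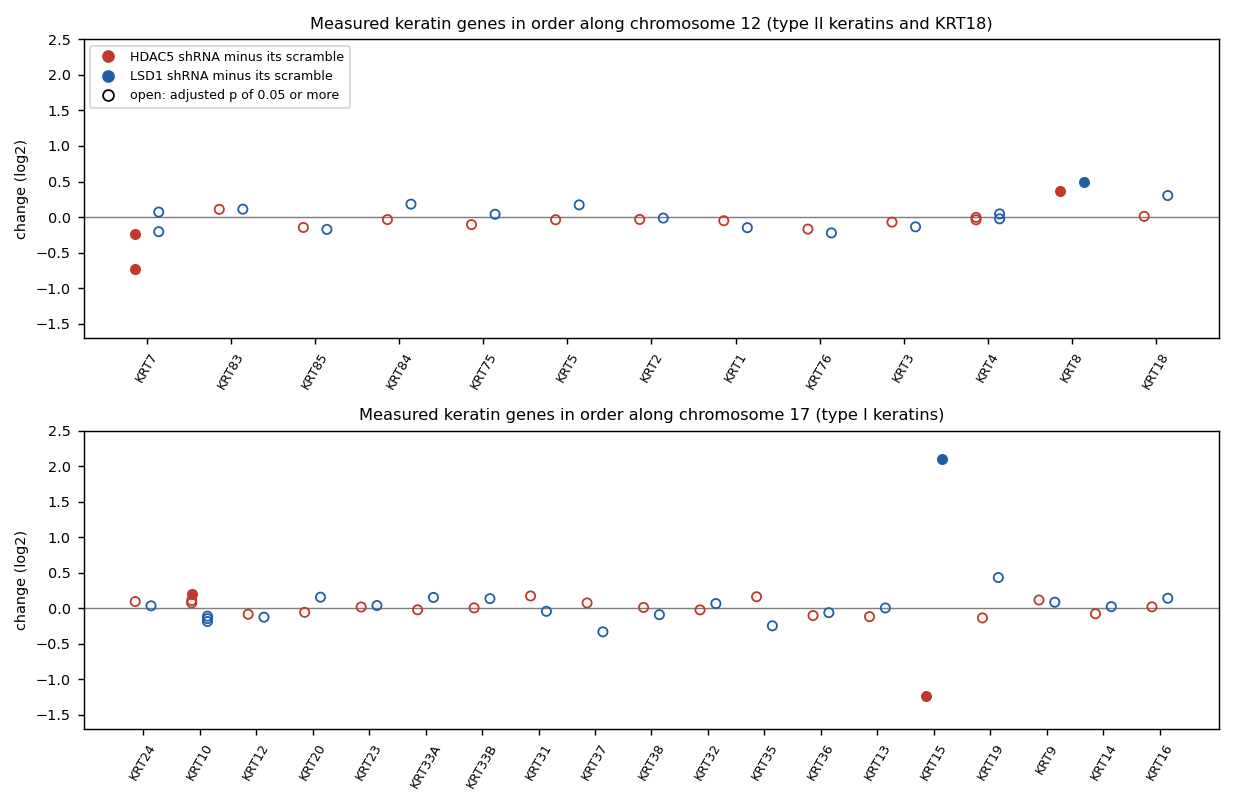
Change (log2) of every measured keratin probe set in the order of the genes on chromosome 12 (type II keratins and KRT18, upper panel) and chromosome 17 (type I keratins, lower panel), red for HDAC5 shRNA and blue for LSD1 shRNA, each minus its scramble; filled points passed an adjusted p of 0.05. KRT15 stands out on chromosome 17 at -1.23 and 2.10, and most other genes lie near 0.

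Other intermediate filament genes (14 genes, 22 probe sets) included lamins and neuronal filaments. With HDAC5 shRNA 5 probe sets rose and 2 fell, against 38.2% of all probe sets called in that comparison (19.0% higher and 19.2% lower), so the count is not above the background. LMNB1, a lamin of the nuclear envelope, averaged 9.95 ± 0.09 with HDAC5 shRNA, against 8.66 ± 0.09 with scramble (change 1.30, SE 0.06, adjusted p = 5.75e-07). LMNB2, the other B-type lamin, rose by 0.71 (SE 0.05) and NES, the nestin gene of progenitor cells, by 0.51 (SE 0.06), while BFSP1, a lens filament protein, fell by 1.05 on the log2 scale (SE 0.08). With LSD1 shRNA LMNB1 was the only one called, averaging 9.87 ± 0.28 against 10.76 ± 0.10 with scramble (change -0.90, SE 0.15, adjusted p = 0.0282). Without LSD1 shRNA replicate 1 or 3, or without any of the scramble replicates, 0 of the list's probe sets were called. LMNB1 thus changed in the same directions as VIM's measured differences, and opposite to KRT15's.

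Genes to which keratin filaments attach, plakins and the components of desmosomes and hemidesmosomes, gave 44 probe sets for 20 genes. With HDAC5 shRNA 5 rose and 10 fell, a share near the 38.2% of all probe sets (19.0% higher and 19.2% lower). ITGB4, the hemidesmosome integrin subunit, averaged 8.49 ± 0.09 with HDAC5 shRNA, against 9.65 ± 0.11 with scramble (change -1.16, SE 0.07, adjusted p = 1.95e-06), and another of its probe sets gave -0.55 (SE 0.15, adjusted p = 0.0185). Its partner ITGA6 changed by -0.74 in probe set 215177_s_at (SE 0.06) and by -0.44 in the brighter 201656_at (SE 0.06, adjusted p = 5.19e-04). The desmosome linkers DSP and JUP and the plakin PLEC also fell (-0.30, -0.49 and -0.43 in the called probe sets). The plakin EVPL and the desmosome genes PKP4 (214874_at) and DSG1 rose (0.24, 0.33 and 0.16). DSG1 was near the floor of the array, at percentile 4.15 with HDAC5 shRNA and 2.70 with scramble. The brighter PKP4 probe sets 201927_s_at, 201928_at and 201929_s_at did not pass (0.06, -0.02 and -0.04). DST, a hemidesmosome plakin with many isoforms, rose by 0.82 in probe set 204455_at (SE 0.05), and 216918_s_at rose too, while 212254_s_at and 215016_x_at fell (-0.39 and -0.35), so its probe sets give no single direction. With LSD1 shRNA 0 of the 44 passed in limma, and 7 had an unadjusted p under 0.05.

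Transcription and splicing factors of epithelial genes gave 20 probe sets for 12 genes. With HDAC5 shRNA 8 fell and none rose, a share of calls near the 38.2% of all probe sets (19.0% higher and 19.2% lower). KLF4, a factor of epithelial differentiation, changed by -1.39 (SE 0.09) and -1.36 (SE 0.05) in its 2 probe sets. The splicing factor ESRP1 changed by -1.18 (SE 0.12) and CEBPB by -0.997 (SE 0.04), all with adjusted p-values of 4.40e-05 or less. With LSD1 shRNA TFAP2A, the AP-2 factor of epithelia, averaged 7.37 ± 0.10 against 6.61 ± 0.13 with scramble (change 0.77, SE 0.10, adjusted p = 0.0150). SOX9, a progenitor factor, averaged 8.69 ± 0.28 against 9.60 ± 0.17 with scramble (change -0.91, SE 0.16, adjusted p = 0.0352). The other 18 did not pass with LSD1 shRNA, and of the 2 calls 0 remained without LSD1 shRNA replicate 1 or 3 or scramble replicate B or C, and 1 without scramble replicate A. TFAP2A's called probe set (204653_at) had fallen with HDAC5 shRNA (-0.31, adjusted p = 0.00263). The TFAP2A probe sets 204654_s_at and 210669_at were dim (percentiles 7.80 to 10.7). They did not pass with HDAC5 shRNA (0.06 and -0.03) or with LSD1 shRNA (0.10 and 0.001).

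Proteins that bind, fold, cross-link or phosphorylate keratin or vimentin filaments gave 35 probe sets for 17 genes, of which 12 rose and 5 fell with HDAC5 shRNA, against 38.2% of all probe sets (19.0% higher and 19.2% lower). AURKB and PLK1, mitotic kinases that phosphorylate vimentin, rose by 1.41 (SE 0.05) and 1.04 (SE 0.08). SFN, the epithelial 14-3-3 protein, rose by 0.88 (SE 0.08) in its most changed probe set, and TGM2, a cross-linking transglutaminase, by 0.81 (SE 0.08) in probe set 211573_x_at, although another TGM2 probe set fell (-0.32, adjusted p = 0.00117). With LSD1 shRNA 0 of the 35 passed in limma, and 4 had an unadjusted p under 0.05.

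The genes whose pattern was most like that of KRT15 were found by Pearson's r over the 12 arrays, each value centred on the scramble mean of its own experiment. They were DNAJC12 (r = 0.993), BBLN (r = 0.991) and ACTA2 (r = 0.991), given as a description, since the arrays share their groups. DNAJC12, a co-chaperone gene, changed by -1.25 with HDAC5 shRNA (adjusted p = 1.15e-06) and by 1.95 with LSD1 shRNA (adjusted p = 0.0195). BBLN changed by -0.52 (adjusted p = 2.77e-04) and by 0.81 (adjusted p = 0.0218) in the same comparisons. ACTA2, smooth muscle actin, changed by -0.65 with HDAC5 shRNA (adjusted p = 1.77e-04), and its 1.07 with LSD1 shRNA did not pass (adjusted p = 0.0684). The 3 genes lie on chromosomes 9 and 10, away from the keratin clusters.

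RNA quality was read from the difference between the 3′ and 5′ control probe sets of ACTB. It averaged 0.68 ± 0.08 with HDAC5 shRNA, against 0.90 ± 0.06 with scramble (exact two-sided permutation p = 0.1, the smallest possible). It averaged 1.43 ± 0.12 with LSD1 shRNA, against 1.30 ± 0.06 with scramble (exact p = 0.2, SD, n = 3 for each mean). For GAPDH the differences were -0.02 (exact p = 0.2) and 0.04 (exact p = 0.1). The part of RNA quality in the member changes was not tested. Among the marker genes, the E-cadherin gene CDH1 averaged 6.40 ± 0.28 with LSD1 shRNA, against 4.18 ± 0.23 with scramble (change 2.22, SE 0.17, adjusted p = 0.00158) in probe set 201131_s_at, and its other probe set gave 0.20 (adjusted p = 0.296). The fibroblast marker LUM averaged 4.15 ± 0.33 with LSD1 shRNA, against 2.61 ± 0.39 with scramble (change 1.54, SE 0.23, adjusted p = 0.0205). Among the marker probe sets called with HDAC5 shRNA besides VIM, EPCAM (0.67), GATA3 (0.29), CAV1 (0.52 and 0.40) and COL1A1 (0.38) rose. S100A4 (-0.79), PECAM1 (-0.62), VWF (-0.31), CDH1 (-0.30), MSN (-0.16) and ANXA1 (-0.14) fell. The COL1A1 rise was in the dim 202310_s_at (percentiles 27.5 and 33.5). Its brighter 202312_s_at and 217430_x_at gave -0.22 and -0.10 and did not pass. The called CDH1 and VWF probe sets were dim too, at percentiles 8.12 to 16.9. The other CDH1 probe set gave -0.05 with HDAC5 shRNA (adjusted p = 0.689). The 7 fibroblast and endothelial genes had a mean signal of 4.76 to 4.80 over the HDAC5 shRNA arrays, against 4.93 to 5.01 over the scramble arrays. In the LSD1 experiment it was 5.57 to 5.63 with LSD1 shRNA, against 5.37 to 5.45 with scramble. Of the probe sets in that mean, LUM had by far the largest change with LSD1 shRNA (1.54). It was dim, at percentile 1.59 with scramble and 12.5 with LSD1 shRNA. The others changed by -0.07 to 0.05 and did not pass. The part of these genes in the member changes was not tested.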

How the data were processed

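RNA of 12 MDA-MB-231 samples was hybridised to Affymetrix 3′ arrays, 1 array each. The deposited log2 values were made by the authors with RMA in the affy package, per the submitters' processing notes (no versions listed). The notes do not say if both experiments went through RMA jointly. Array medians (6.58 to 6.64 for HDAC5, 7.05 to 7.15 for LSD1) and lower quartiles (4.59 to 4.65 and 5.18 to 5.26) differed. The deposited values are therefore not on a common scale across the experiments. The 12 value columns were matched to samples by title. Of 22277 probe sets, 62 controls were left out. In the platform annotation 19064 had a single symbol, 1043 several and 2108 none. Of the single-symbol probe sets, 19052 were matched by gene ID to RefSeq (GRCh38.p14) and took its symbol, changed or not. The other 12 kept theirs. No 2 arrays were identical, and within groups they correlated at 0.9907 to 0.9990.

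Each shRNA was set against its own scramble (6 arrays per fit) using limma 3.58.1, R 4.3.3 (eBayes with a mean-variance trend), over all 22215 probe sets, with Benjamini-Hochberg adjustment and a threshold of 0.05. The difference between the changes came from a fit of the 12 arrays. SE are moderated, SD are over the 3 arrays of a group, and intervals are at 95%. The number of arrays limits the precision. The fits were tested on simulated data. The HDAC5 replicate numbers were checked for pairing. Same-numbered arrays deviated with correlations of -0.05, -0.21 and -0.14, which gave no sign of a shared deviation. The labels do not say whether same-numbered samples were prepared together, and these correlations cannot settle it. The LSD1 arrays share no numbers with their scramble set.

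The members and lists were chosen with earlier results of these data known. Named were all member probe sets, the targeted genes, from each other list up to 4 called probe sets with the largest change per comparison, and the 3 genes most like the most changed member. DSP, JUP, PLEC, EVPL, PKP4, DSG1, KRT13, ANXA1, the pseudogenes, and further probe sets of TFAP2A, TGM2, DST, CDH1, ITGA6 and COL1A1 were added after their values were seen. Alternatives were other ways to join probe sets, a filter on dim ones, a fit of all arrays, no trend, array weights, quantile normalization, a replicate block and leaving out each array.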

Additional observations from a re-analysis of the deposited data

Results flagged for a closer look

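The change with HDAC5 shRNA differed from the change with LSD1 shRNA in 4 member probe sets, by a test of the difference itself in limma's fit of the 12 arrays. The difference, HDAC5 change minus LSD1 change, was -3.33 for KRT15 (adjusted p = 9.07e-05), -0.53 for KRT7 in probe set 209016_s_at (adjusted p = 0.0269), -0.29 for KRT18 (adjusted p = 0.0340) and 0.26 for VIM (adjusted p = 0.00107). Experiment, scramble set and processing are shared within each change, and what they add to the differences was not tested.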

How the results depend on the processing

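For HDAC5 shRNA the probe sets or genes called were 8489, against 5319 with 1 probe set per gene, 5130 with the mean of probe sets (fewer features tested in both), 5539 in 1 fit over 12 arrays, and 7109 to 8088 with an array left out; member calls were 5, and 4 or 5 with an array left out. For LSD1 shRNA they were 847, against 3485 in 1 fit over 12 arrays and 112 to 1062 with an array left out; member calls were 2, against 4 in 1 fit over 12 arrays (VIM and KRT18 added, adjusted p = 0.00758 and 0.00808) and 0 to 3 with an array left out. Without scramble A, B or C the LSD1 calls were 329, 126 and 112, and without LSD1 shRNA 1, 2 or 3 they were 189, 1062 and 230. The lists with no call for LSD1 shRNA had 1 (other keratins), 4 (plakins and desmosome) and 3 (filament partners) in 1 fit over 12 arrays. For the difference of changes, member calls were 4, and 2 to 4 with an array left out. Changes near 0 turned sign: KRT18 with HDAC5 shRNA after quantile normalization (-0.0378) and with an array left out (-0.0277 to 0.0512, below 0 without scramble 3 or HDAC5 shRNA 1 or 3); KRT5 with HDAC5 shRNA (-0.0872 to 0.0391, above 0 without HDAC5 shRNA 2); KRT14 with LSD1 shRNA after quantile normalization (-0.0082) and with an array left out (-0.0136 to 0.0753, below 0 without scramble B or LSD1 shRNA 1); and KRT7 214031_s_at with LSD1 shRNA (-0.0520 to 0.135, below 0 without scramble A or LSD1 shRNA 3). With HDAC5 shRNA, KRT7 214031_s_at lost its call in 1 fit over 12 arrays (adjusted p = 0.163) and after quantile normalization (0.0708), VIM lost it without the trend (0.0801), and KRT19 passed after quantile normalization (0.0311). For the difference of changes, KRT18 lost its call without the trend (0.0681) and KRT8 passed with array weights (-0.22, adjusted p = 0.0394). Beyond fewer arrays or features, the cause was not tested. HDAC5 replicate numbers as a replicate block gave 5 member calls and 7621 in all, and changed no member's call. For LSD1 shRNA no paired analysis was possible because the LSD1 arrays share no replicate numbers with their scramble set. Dim probe sets (KRT5, KRT14, KRT7 214031_s_at) have little signal over background, which limits what can be seen of them.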
